A study of Mus musculus with 26 samples.

Results

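The genes described here are 10 members of the bone morphogenetic protein (BMP) pathway. They were chosen by name and not by a cut on any value, but with earlier results of these data known. The genes are the ligands Bmp2, Bmp4 and Bmp7, the receptor Bmpr1a, the pseudoreceptor Bambi, the inhibitory Smad6, and the targets Id1, Id2, Id3 and Id4. They are 10 of the 21951 protein-coding genes of the annotation, and 336 of 180036 accessible regions lie within 100 kb of them. The cells are E14, a line of mouse embryonic stem cells grown without feeders in medium with serum. They were cultured for 48 h, and for the last 4 h the medium contained either leukemia inhibitory factor (LIF, mESC+) or, with LIF withdrawn, 1 µM retinoic acid (RA, mESC−). Both changes were made together, so the effect of RA and that of the loss of LIF cannot be told apart. ATAC-seq, in which a transposase cuts open chromatin, gave 1 library per state from 75000 cells each, RNA-seq gave 3 libraries per state, and 8 ChIP-seq libraries gave the enhancer probabilities used here. With 1 ATAC-seq library per state a difference has no replicate check, and the number of reads behind each peak is unknown. In such bulk samples, a change in a few cells and a smaller change in all of them cannot be told apart.

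BMP ligands bind complexes of type I and type II receptors at the cell surface, and the type I receptor then phosphorylates Smad1, Smad5 and Smad9. These join Smad4 and bind DNA at GC-rich elements next to a short GTCT site. The Id genes, whose products keep basic helix-loop-helix factors from binding DNA, are direct targets of these Smads. In mouse embryonic stem cells, BMP from serum acts through Id proteins together with LIF, which signals through STAT3, to hold back differentiation.

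Matches to a BMP response element, GGCGNCNNNNNGTCT on either strand, were found within 300 bp around the summit of 8 accessible regions near the 10 genes. Of these, 7 lie near an Id gene and 1 in the window of Smad6. These sequences are shown because they carry the recognition site of the pathway inside open chromatin of its own targets. Each is from GRCm38 and reads 5′ to 3′ in the orientation of the element, which is in capitals:
Id1 upstream, chr2:152735176-152735250, plus strand: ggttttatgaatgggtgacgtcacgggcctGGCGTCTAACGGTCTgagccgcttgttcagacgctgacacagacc
Id2 upstream, chr12:25098824-25098898, minus strand: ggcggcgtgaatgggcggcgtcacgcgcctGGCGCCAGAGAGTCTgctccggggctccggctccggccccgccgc
Id3 upstream, chr4:136140510-136140584, plus strand: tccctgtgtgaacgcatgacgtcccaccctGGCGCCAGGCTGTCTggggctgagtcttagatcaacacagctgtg
Id1 downstream, chr2:152739441-152739515, plus strand: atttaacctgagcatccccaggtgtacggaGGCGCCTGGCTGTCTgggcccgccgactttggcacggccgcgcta
Id2 downstream, chr12:25093014-25093088, minus strand: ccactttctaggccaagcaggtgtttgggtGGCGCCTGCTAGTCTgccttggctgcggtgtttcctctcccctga
Id3 downstream, chr4:136147951-136148025, plus strand: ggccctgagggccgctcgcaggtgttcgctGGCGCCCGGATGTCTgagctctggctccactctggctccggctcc
Id4, chr13:48262860-48262934, plus strand: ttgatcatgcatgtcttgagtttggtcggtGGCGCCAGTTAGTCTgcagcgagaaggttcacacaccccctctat
Smad6, chr9:63919295-63919369, minus strand: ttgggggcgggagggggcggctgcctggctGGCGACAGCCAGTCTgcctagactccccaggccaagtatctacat

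The 8 regions are 2.38% of the 336 near the members, against 0.131% (235) of the 179949 accessible regions placed on the chromosomes. The regions that hold the element are rich in G and C, and the share was therefore also taken by GC content of the 300-bp window. Between 55% and 65% GC, the element was present in 4 of 110 regions near the members (3.64%) and in 0.236% of such regions across the genome. At 65% GC or more, it was present in 4 of 31 (12.9%), against 0.735%. A match describes the letters in the window and does not show that a Smad is bound there. The members include known targets of the pathway, and the element was chosen with earlier results of these data known. The shares are thus a description and carry no test. In Id1, Id2 and Id3 the element occurs once upstream and once downstream of the gene. The centers of the matches lie at positions −1038 and 3227 from the annotated start of Id1, −1721 and 4089 from that of Id2, and −2950 and 4491 from that of Id3. In Id4 a single match lies at position 1669. In the window of Smad6 it lies at position 102727, beyond the 3′ end of the gene. With no open base in the GC part of the site (GGCGCC), 6 of the 8 regions still had a match, those of Id1 upstream and of Smad6 being the ones that did not.

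Peak height is given as the fold enrichment over background that the authors' peak caller computed in each library. To set the libraries side by side, the log2 ratio of mESC− over mESC+ was centered on the median of all 117520 shared regions, which was −0.09, and a region was called higher or lower past a fold of 1.5. The upstream element of Id1, between genes on chromosome 2 from 152735112 to 152735282, reached 5.64 in mESC+ and 6.97 in mESC−. The downstream element of Id1 had 5.57 in mESC+ and 4.48 in mESC−. The upstream element of Id2 had 8.68 in mESC+ and 7.63 in mESC−, and the downstream one 5.59 and 5.44. Both Id2 regions thus differed little between the libraries. The tallest region with an element was the one upstream of Id3, with 11.6 in mESC+ and 11.7 in mESC−. The downstream region of Id3 was among the lowest, with 4.37 in mESC+ and 3.77 in mESC−. At Id4, a peak of 4.14 was called in mESC+ only (23.7% of all regions are), and in the window of Smad6 a peak of 5.41 in mESC− only (11.0% of all regions). Of the 6 regions called in both states, 3 had a log2 ratio above 0 and 3 below, and none reached a fold of 1.5. Of all shared regions, 4.05% were higher and 4.61% lower by that fold.

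The GC part alone, GGCGCC, which lies within most of the response elements, was present in 38 regions near the members (11.3%), against 6.42% of all regions, with no adjustment for GC content. The 29 of these called in both lists had a median log2 ratio of −0.07. RefSeq promoter windows, from 250 bases before to 50 after the start, were at hand for 6 of the 10 genes (Bmp4, Bmpr1a, Smad6, Id2, Id3 and Id4). They held GGCGCC in Bmpr1a, Id2 and Id4, as did 11.9% of 32851 such windows.

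**Figure D1:**
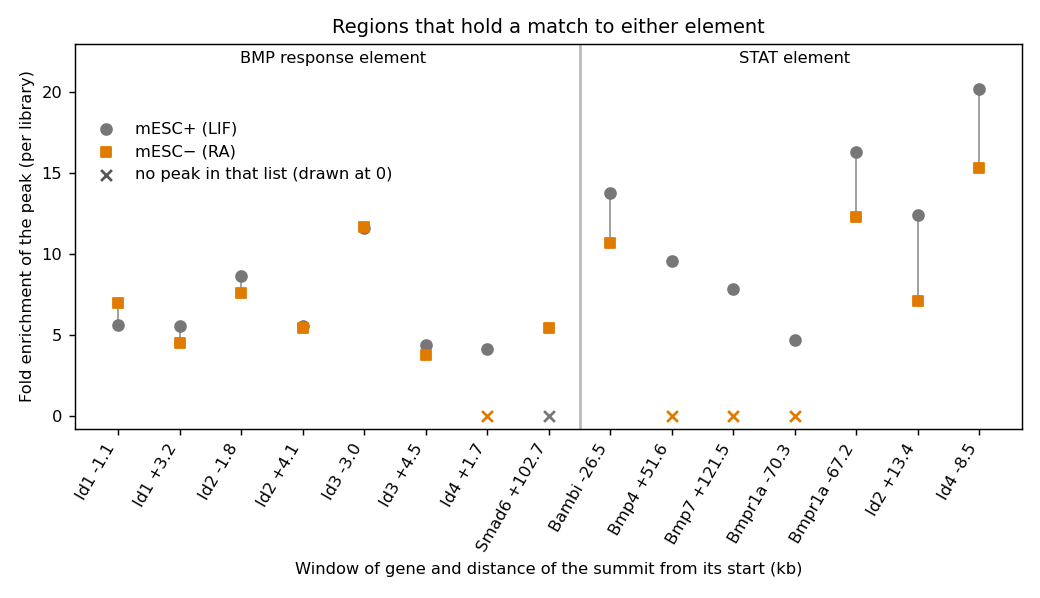
Fold enrichment in mESC+ (gray dots) and mESC− (orange squares) of regions with a BMP response element (left) or a STAT element (right) within the 300 bp around the summit. Regions are named by gene and distance of the summit from its annotated start in kb, with a cross at 0 where that list has no peak. On the left, the 6 shared regions, all near Id1, Id2 or Id3, are higher in either library, while the Id4 and Smad6 regions are each in 1 list, and on the right each of the 4 shared regions is higher in mESC+.

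STAT factors, through which LIF signals, bind the element TTCCNGGAA, which was searched in the same windows on both strands. It was found in 7 regions near the members (2.08%), against 1.14% of all regions. Of these 7, 3 were called in mESC+ only, 0 in mESC− only and 4 in both, and all 4 shared regions were lower in mESC−. Of all regions, 23.7% were called in mESC+ only and 11.0% in mESC− only. Over the genome, 534 of 2052 regions with the element were called in mESC+ only and 168 in mESC− only. As shares, the former is slightly above and the latter slightly below that of all regions. Of the 1350 shared regions with the element, 54.0% had a ratio below 0, with a median of −0.04. Centering leaves about as many of all shared regions below 0 as above. In 3 of the 7 the match lies in the 300-bp window but not wholly inside the merged region. These 3 are in the windows of Bmp7 and Bmpr1a and include regions in mESC+ only and a shared region. Only the other 4 remained when the regions themselves were searched. Of these 4, the ones in the windows of Id2, Id4 and Bmp4 are shown as examples of an element inside open chromatin, with the element in capitals on the plus strand of GRCm38:
Id2, chr12:25083763-25083831: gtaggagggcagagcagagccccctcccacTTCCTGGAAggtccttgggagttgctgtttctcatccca
Id4, chr13:48252544-48252612: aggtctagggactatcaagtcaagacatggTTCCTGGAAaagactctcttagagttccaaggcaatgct
Bmp4, chr14:46338967-46339035: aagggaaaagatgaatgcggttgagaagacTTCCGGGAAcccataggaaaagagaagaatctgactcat

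The Id2 region spans 25083530 to 25084303 on chromosome 12, between genes and downstream of Id2, and went from 12.4 in mESC+ to 7.11 in mESC−. The log2 ratio of −0.71 was the only one of the 4 shared regions past a fold of 1.5. The Id4 region, in an intron of the transcripts A330033J07Rik and Gm49291, had 20.2 in mESC+ and 15.3 in mESC− (log2 ratio −0.31). The region in the window of Bmp4, from 46338871 to 46339141 on chromosome 14, appeared only in the mESC+ list, where its height of 9.55 stood at percentile 74.4 of all peaks. The start closest to it is that of another gene, Gm15217. Near Bambi, a region with the element had 13.8 in mESC+ and 10.7 in mESC− (log2 ratio −0.28).

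Receptors of RA bind direct repeats, searched as AGNTCANNNNNAGNTCA (spacing of 5 bases) and AGNTCANNAGNTCA (spacing of 2). The former was found in 1 region near the members (0.298%, all regions 0.217%) and the latter in 2 (0.595%, all regions 0.345%). The single match with the wider spacing lies in the window of Id3 beside a region called in mESC+ only, inside the neighboring gene Asap3. The 2 matches with the narrow spacing lie in shared regions in the windows of Bmpr1a and Id4, with log2 ratios of 0.34 and −0.15. Across the genome, 25.6% of the 391 regions with the wider repeat were called in mESC− only, and 14.5% of its shared regions were higher in mESC− by 1.5-fold.

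The state of the promoters was compared next, as peaks within 1 kb of the annotated start. All 10 genes had a peak there in mESC+ and all 10 in mESC−, where 67.7% and 66.4% of the coding genes did. There were 17 such regions, 16 of them called in both lists. None of the 16 ratios reached a fold of 1.5 in either direction. Across shared regions at coding starts, 1.95% were higher and 1.32% lower by that fold.

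Among the ligands, which start the signal, the start of Bmp2 was covered by 2 low regions. The one nearest the start had 5.03 in mESC+ and 4.94 in mESC−, and the one inside the transcript 4.38 and 5.45. The latter has a log2 ratio of 0.41. Bmp4, the ligand best known from stem cell culture, had 5.67 at its start in mESC+ and 3.92 in mESC− (log2 ratio −0.44), and a further peak of 3.35 inside the gene in mESC+ only. At Bmp7 the region over the start was the tallest of the ligands, with 10.6 in mESC+ and 8.88 in mESC−. Of the ligands, Bmp4 thus had the lowest ratio.

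Bmpr1a encodes a type I receptor of the pathway. The region inside its first part, which overlaps the promoter that RefSeq gives for the gene, had 7.63 in mESC+ and 6.46 in mESC−. The one over the annotated start had 4.95 and 5.53. The annotated start of Bambi, whose product resembles a receptor but lacks the kinase, lay in a tall region with 12.9 in mESC+ and 11.3 in mESC−. A smaller region upstream of Bambi went from 4.96 to 3.25, a log2 ratio of −0.52. Smad6 inhibits the pathway and is itself induced by it. Its start had 6.56 in mESC+ and 5.35 in mESC−, and its upstream region 5.79 and 5.85.

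At the tallest start region of each of the 4 Id genes, the log2 ratio was below 0 at Id1, Id3 and Id4. At Id2 it was 0.10, and 0.00 without centering. The further start regions of Id1 and Id4 had ratios of 0.40 and 0.28. The region over the start of Id1 fell from 8.81 in mESC+ to 6.36 in mESC− (log2 ratio −0.38), below the fold used as a threshold. The Id3 region had 7.51 and 4.95, the lowest Id ratio, −0.51. Without centering, the ratio at Id3 was −0.60 and passed 1.5-fold. At Id2 the values were 7.52 and 7.53, in a region whose summit lies 1001 bp inside the longest annotated transcript and which overlaps the promoter that RefSeq gives for the gene. Id4 had the tallest start region of all 10 genes, with 14.7 in mESC+ and 12.9 in mESC− (log2 ratio −0.10), and a lower one inside the gene with 5.06 and 5.75. Among the Id starts, the libraries thus differed most at Id3.

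**Figure D2:**
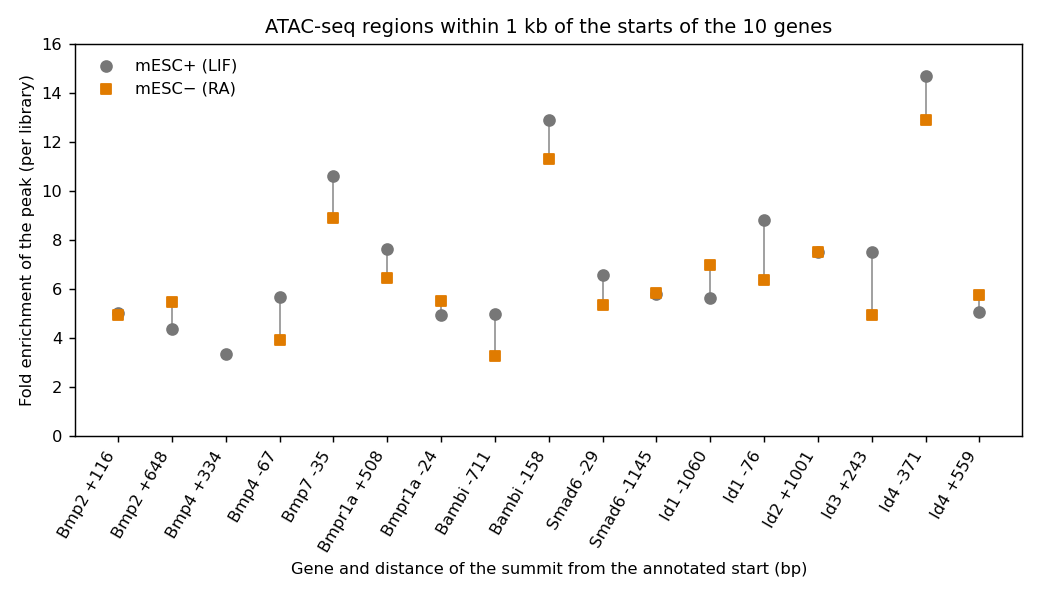
Fold enrichment in mESC+ (gray dots) and mESC− (orange squares), 1 library each, for the 17 regions within 1 kb of the annotated starts, labeled by gene and distance of the summit in bp. Gray dots lie above their squares at most starts, with the widest gaps at Id1 and Id3, and the dot without a square is the Bmp4 region called in mESC+ only.

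The 100 kb on either side of the genes held between 12 regions (Bmp2) and 61 (Bmpr1a), where the median over coding genes is 28. Of the 336 regions, 227 were called in both lists. The share in mESC+ only was 22.3% (75 regions, exact 95% interval 18.0 to 27.2), against 23.7% of all regions. The share in mESC− only was 10.1% (34 regions, 7.11 to 13.9), against 11.0%. Both shares are near those of the genome, and the intervals cover counting error only. The mESC+ list is also the longer one, with 163484 peaks against 141465. By role, the share in mESC+ only ran from 16.7% near Smad6 to 25.7% near the ligands, and that in mESC− only from 6.67% near Bambi to 12.9% near the ligands. Regions in 1 list only were low, with a median fold enrichment of 4.71 in mESC+ and 4.58 in mESC−, whereas shared regions had 7.22 and 6.52.

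The strongest region called in mESC+ only lies upstream of Bmp7, on chromosome 2 from 172952092 to 172952217, with a height of 10.1 (percentile 77.5 of the list). In the window of Id2, one of 8.31 lies from 25144644 to 25144963 on chromosome 12. The strongest regions called in mESC− only reached 6.52, one in the window of Id4 and another in that of Bmp7, both at percentile 49.2. Near Smad6 the strongest such region had 6.21, between genes and upstream of the start.

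Among the 227 shared regions, 9 were higher in mESC− by 1.5-fold (3.96%, all shared regions 4.05%) and 9 were lower (3.96%, all shared regions 4.61%). These shares do not set the members apart from the genome. Without centering, the split was 4 higher and 18 lower. The median log2 ratio was −0.03, with a range from −1.14 to 0.83, and over all shared regions it was 0.00. The medians by role were −0.06 for the ligands, −0.02 for Bmpr1a, −0.04 for Bambi, −0.10 for Smad6 and −0.01 for the Id genes. In the windows of Bmp7, Bambi and Id4 no shared region passed the fold.

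**Figure D3:**
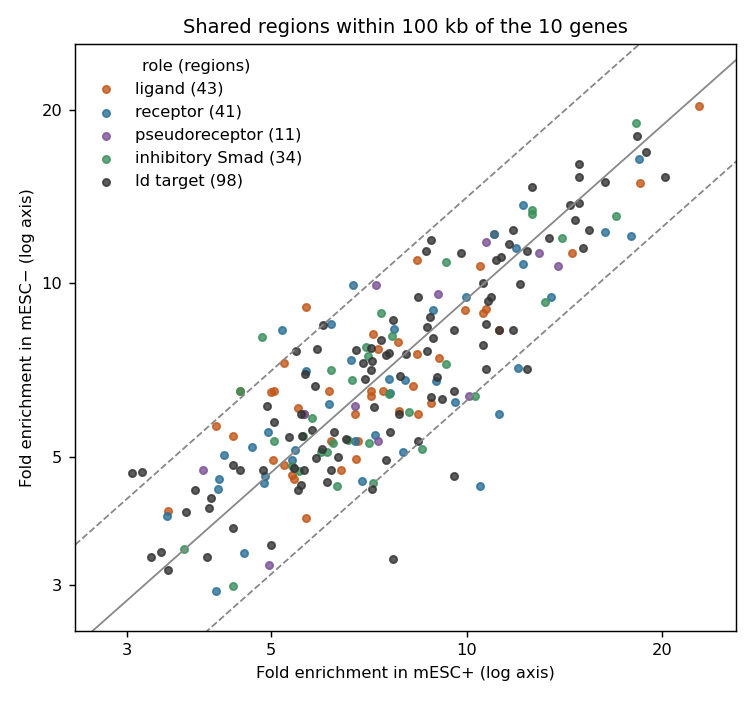
Fold enrichment in mESC− against mESC+ on log axes for the 227 shared regions within 100 kb of the genes, 1 point per region, colored by role of the gene. The solid line is the median ratio of all shared regions and the dashed lines a 1.5-fold difference from it, and 9 points lie beyond each dashed line.

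Of the 18 regions past the fold, 10 have the member as the nearest coding start. The ligands Bmp4 and Bmp2 had 1 such region each, both higher in mESC−. A region upstream of Bmp4 at position −9509 went from 5.67 in mESC+ to 9.09 in mESC− (log2 ratio 0.77), and one downstream of Bmp2 at position 34459 from 4.49 to 6.52 (0.63). In Bmpr1a, both such regions lie in introns and were lower in mESC−, from 10.5 to 4.46 (log2 ratio −1.14, the lowest of all) and from 11.2 to 5.93 (−0.83). Smad6 had 2 higher and 2 lower regions. One over a coding exon of Smad6 went from 4.84 to 8.08 (0.83, the highest of all), and an intronic one from 8.53 to 5.17 (−0.63). Id2 had 2 lower regions downstream of the gene, the one with the STAT element and another that went from 9.55 to 4.64 (−0.95). Near Id1, the 4 regions past the fold and, near Id3, the 1 such region lie closer to the starts of other genes, such as Cox4i2, Bcl2l1, Mcts2 and Asap3. The Id1 neighbor with the lowest ratio, next to Cox4i2, went from 7.70 to 3.33 (−1.12).

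Sequence is given for the largest rise and the 2 largest falls among the regions nearest to a member, outside exons, all on the plus strand of GRCm38 and without capitals, since none of the searched elements was found there:
Bmp4 upstream, chr14:46400081-46400255: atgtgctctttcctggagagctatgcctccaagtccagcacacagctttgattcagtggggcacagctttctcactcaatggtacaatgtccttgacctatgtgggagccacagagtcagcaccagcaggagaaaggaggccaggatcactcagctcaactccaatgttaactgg
Bmpr1a intron, chr14:34460070-34460232: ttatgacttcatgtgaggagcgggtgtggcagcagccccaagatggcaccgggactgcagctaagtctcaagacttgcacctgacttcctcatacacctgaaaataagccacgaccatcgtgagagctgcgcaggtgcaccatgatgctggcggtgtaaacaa
Id2 downstream, chr12:25069236-25069403: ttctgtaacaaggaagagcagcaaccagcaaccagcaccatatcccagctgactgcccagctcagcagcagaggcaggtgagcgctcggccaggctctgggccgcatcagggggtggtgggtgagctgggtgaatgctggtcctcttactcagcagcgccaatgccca

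For each gene, the region with the highest mean of both libraries was also taken, and the log2 ratios of these 10 regions ran from −0.28 near Bambi to 0.25 in the window of Bmp7. The region in the window of Bmp7 lies over an untranslated part of the neighboring gene Rae1, whose start is the closest. Those in the windows of Id1, Id3 and Bmpr1a also lie closer to the start of another gene. Downstream of Bmp2, the region from 133614716 to 133615015 on chromosome 2 had 22.8 in mESC+ and 20.3 in mESC−, at percentiles 99.8 and 99.6 of the lists. Upstream of Smad6 the region with the highest mean had 18.2 and 19.0. In the window of Id2 it lay in an intron of Kidins220 and had 18.3 and 18.0. In the window of Id4 it had 18.9 and 16.9, where the Id4 region with the STAT element was taller in mESC+ (20.2) but lower in mESC− (15.3). Upstream of Bmp4 it had 18.5 and 14.9 (log2 ratio −0.22). None of these passed the fold.

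**Figure D4:**
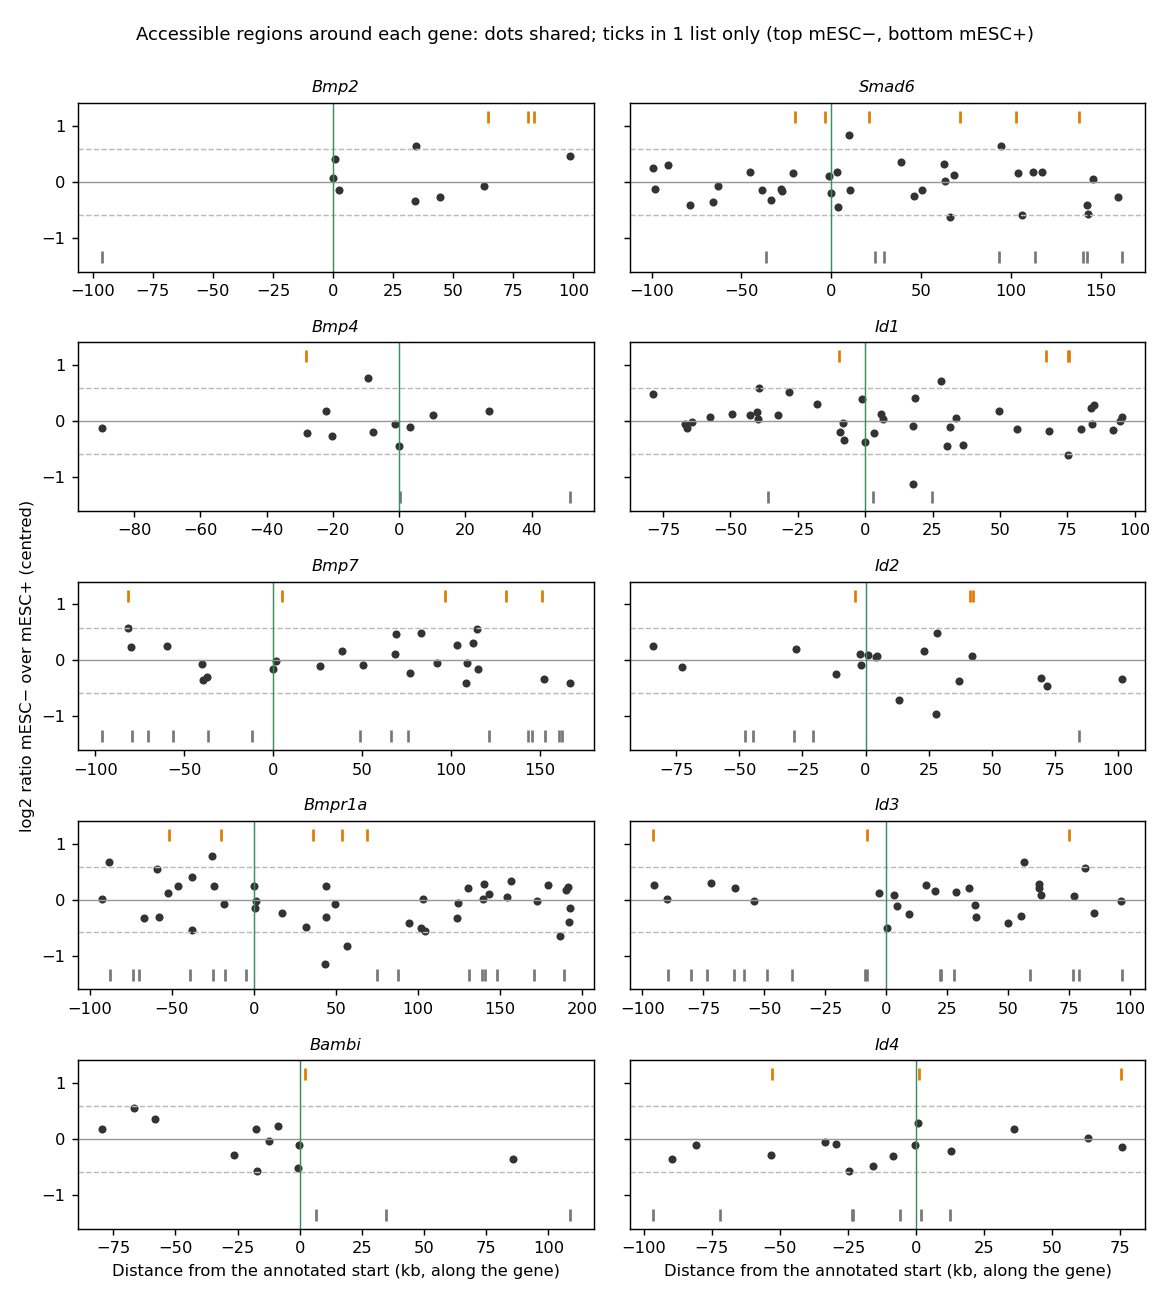
Centered log2 ratio of mESC− over mESC+ (vertical axis) against distance from the annotated start in kb (horizontal axis) for each gene, with dots for shared regions, dashed lines at a fold of 1.5 and ticks for regions in mESC− only (top) or mESC+ only (bottom). The regions past the fold are scattered over the windows, and none of them lies at a start.

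Regulatory activity was taken from the enhancer probabilities, values between 0 and 1 that the authors computed from H3K4me1, H3K4me3 and H3K27ac ChIP-seq against input, for 327 regions that change between the states. None of them lies within 100 kb of any of the 10 genes, nor within 200 kb. Of the coding genes, 4.54% have one within 100 kb. The closest is 337 kb from Bmp7 (probability 0 in mESC+ and 0.960 in mESC−), followed by one 404 kb from Id4 (0.902 and 0). The next are 616 kb from Id3 and 842 kb from Id1, both with the higher probability in mESC−.

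The RNA-seq table lists 2189 gene identifiers, with a mean normalized count over all 6 libraries and the authors' own comparison of the states, which is not used here, so no change of RNA is reported. Whether a gene is listed may depend on that comparison, and a listing is not read here as a change of RNA. Smad6 and Id4 are listed, 2 of the 10 genes, and 9.04% of coding genes are. The mean of Smad6 was 215 counts, or 67.1 per kb of exon, and that of Id4 73.1 counts, or 19.0 per kb. On the scale per kb, the listed Smad6 was thus the higher of the pair. The other members, Id1, Id2, Id3, Bmp2, Bmp4, Bmp7, Bmpr1a and Bambi, are not listed, and their RNA levels are not analysed here.

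Of 45 other genes of the pathway, 12 are listed, where 9.04% of coding genes are. They are the ligands Bmp8a and Gdf3, the co-receptor Rgma, the inhibitory Smad7, the ubiquitin ligase Smurf1, the co-repressors Ski and Skil, the secreted modulators Grem1, Twsg1 and Fstl1, and the targets Msx2 and Dusp9. At their starts, 41 of the 45 had a peak in each list, the others being Bmp5, Bmp10, Bmp15 and Gdf2. A start region higher in mESC− by 1.5-fold was found at 3 genes (Rgma, Smad1 and Smad5), and a lower one at 0. Across shared regions at coding starts, 1.95% were higher and 1.32% lower. Those are shares of regions and not of genes, and a gene can have more than 1 start region. At Rgma, the tallest of its start regions went from 4.06 to 6.34 (log2 ratio 0.74). The tallest start regions of Smad1 and of Smad5 both had a log2 ratio of 0.00, and it was another start region of each that passed the fold. Ski was the only one with a changing enhancer within 100 kb. A region overlapping it, on chromosome 4 from 155176001 to 155193100, went from a probability of 0.00960 to 0.950, and one 39375 bp away from 0.0164 to 0.970. Of 8 marker genes of embryonic stem cells, 7 had a peak at the start in both lists, Esrrb being the exception at its annotated start, and 6 of 6 genes of the RA response are listed. Neither count can tell the labels of the 2 states apart.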

How the data were processed

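Per the labels and the study's methods, ATAC-seq and RNA-seq reads were mapped to GRCm38 with BWA-MEM and ChIP-seq reads with STAR (2.5.1b in the submitters' processing notes), and ATAC-seq duplicates were removed with SAMtools. Peaks of each ATAC-seq library come from MACS2. The authors deposited for every peak its fold enrichment, −log10 p and −log10 q. MACS2 settings are not given in the sources used here. For ChIP-seq, the deposited enhancer probability is a fraction between 0 and 1. The authors' deposited RNA-seq table holds a mean normalized signal over all libraries. Its columns of the authors' DESeq2 comparison (fold change, error, statistic, p-values), and the p-value and cluster of the enhancer list, were not used. Of 2189 identifiers, 2188 matched the annotation (GENCODE M21).

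Peaks of both lists sharing at least 1 bp were merged into regions, and the highest fold enrichment of each list was taken. A region was called at 1.5-fold after centering. Depth is unknown. Motifs were searched in 300 bp around the summit in the higher library, on GRCm38.p6. Promoter windows came from RefSeq. The rule for naming covered all members, their start regions, tallest regions, extreme ratios and strongest regions in 1 list. Regions with motifs and the remaining regions past the fold were named after their values were seen. The members, lists and motifs were chosen with earlier results of these data known. All 11 checks on simulated data passed. Python 3.11.15, NumPy 2.4.6, pandas 2.3.3, SciPy 1.17.1 and matplotlib 3.10.9 were used.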

Additional observations from a re-analysis of the deposited data

How the results depend on the processing

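No paired analysis was possible because ATAC-seq has 1 library per state and the table of RNA-seq holds 1 mean over all libraries. Leaving out a replicate could not be done either. Of 64 alternatives, 44 stayed within 1.5 times the count, or within 1 SD over shared regions of the value, and 20 moved. A reversal was defined only for a ratio past 1.5-fold. None of the main ratios was past it, so no reversal could be found. In the order higher in mESC−, lower in mESC−, mESC+ only and mESC− only, the counts of 9, 9, 75 and 34 became 1, 1, 46 and 12 with a −log10 q of at least 10, which leaves fewer peaks. Within 50 kb the last 2 were 43 and 19, since fewer regions are counted. With an overlap of 50% of both peaks, 71 regions were in mESC− only. For higher and lower alone, the counts were 4 and 18 without centering, 24 and 31 with −log10 p as the height, and 0 and 2 at a fold of 2. Among regions nearest to the member, chosen after seeing the data, 4 were higher and 36 in mESC+ only. The regions with a STAT element were 4 when the regions themselves were searched, also chosen after seeing the data. With −log10 p as the height, the log2 ratio at the start was −0.82 at Bmp4, −0.73 at Id1 and −0.93 at Id3. Within 250 bp of the start, that of Bmpr1a was 0.25, from another region, and Id2 had no peak. Without centering, that of Bmp2 was −0.03.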

Other observations

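The sequences around the BMP response elements of Id1, Id2 and Id3 share letters beyond the element, a pattern noticed in the printed sequences and counted afterwards. In the 30 bases 5′ of the element, CAGGTGT was found at the downstream elements of Id1, Id2 and Id3, with 5, 6 and 5 bases between it and the element. Over all 235 matches in accessible regions of the genome, those 3 were the only ones with it (1.28%). The letters GNCGTC were found at the upstream elements of Id1 (GACGTC), Id2 (GGCGTC) and Id3 (GACGTC), with 8, 8 and 7 bases between, and at 9 of the 235 matches (3.83%). The elements of Id4 and Smad6 had neither. Without gaps, the 75-base stretches of Id1 and Id2 upstream are identical at 44 bases (58.7%), the highest identity among the 8 stretches. The other pairs of like place had fewer identical bases, 27 and 28 for Id3 upstream against Id1 and Id2, and 27 to 33 among the downstream stretches, whereas Smad6 and Id2 upstream shared 36. The letters were chosen after the sequences were seen, so these counts are a description and carry no test.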
